A study of Homo sapiens with 18 samples.

Results

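Expression of 10 genes, the epithelial-mesenchymal transition (EMT) factors ZEB1, ZEB2, SNAI1, SNAI2 and TWIST1 and the cadherins CDH1, CDH2, CDH3, CDH11 and CDH19, was followed in melanoma cells overexpressing MAFG or GFP. The genes were chosen by name, and each matched 1 gene among the 58870 of the count data. RNA-seq was performed on the human melanoma cell lines WM164, SKMEL28 and A375, each expressing from a lentiviral vector either GFP, the control, or MAFG, a small MAF transcription factor, here with a Myc-DDK tag. Both vectors used the EF1α promoter and blasticidin selection, so the control cells carried a vector and the same resistance as the MAFG cells. No label states how many clones or separate transductions the cells came from. Each of the 6 conditions had 3 libraries, 18 in all, with total counts from 20122172 to 39025042 and a median of 31061375. Nothing in the labels says that the 3 libraries came from separate cultures, so the p-values measure the spread between libraries, which may be technical.

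EMT factors are DNA-binding repressors that bind E-box elements and are best known in carcinoma for silencing CDH1, which encodes E-cadherin, the adhesion molecule of epithelial sheets. ZEB1 and ZEB2 are zinc finger and homeobox proteins, SNAI1 (Snail) and SNAI2 (Slug) are zinc finger proteins, and TWIST1 is a basic helix-loop-helix protein. Cells of the melanocyte lineage use these factors differently from epithelia. In this lineage, ZEB2 and SNAI2 accompany differentiation, whereas ZEB1 and TWIST1 are associated with dedifferentiated melanoma. Melanocytes adhere to keratinocytes through E-cadherin and P-cadherin, the product of CDH3. N-cadherin, encoded by CDH2, is typical of mesenchymal and neural cells and often replaces E-cadherin in melanoma. CDH11 encodes a mesenchymal cadherin (OB-cadherin), and CDH19 a cadherin of the neural crest and Schwann cell lineage.

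MAFG itself was higher in every MAFG library than in every GFP library of the same line, and its test on counts missed the threshold in A375 cells. In CPM, a count scaled to its library's size after TMM normalization of all 18 libraries, MAFG rose from 25.8 ± 2.91 to 53.1 ± 4.59 in WM164 cells (mean ± SD, n = 3). In SKMEL28 cells MAFG rose from 24.1 ± 3.47 to 37.3 ± 1.54 CPM. In A375 cells the values were 27.0 ± 4.98 and 47.3 ± 9.23 CPM (edgeR adjusted p = 0.0655). In the deposited TPM the rise was larger, from 2.89 ± 0.54 to 24.5 ± 3.34 in WM164, 3.96 ± 0.64 to 17.0 ± 2.66 in SKMEL28 and 4.22 ± 0.29 to 25.2 ± 2.88 in A375 cells, and it passed in A375 cells as well (limma adjusted p = 0.000643 on the log2(TPM + 1) scale). AXL, a receptor tyrosine kinase of dedifferentiated melanoma, rose by a log2 fold change of 3.13 in WM164 and 5.25 in SKMEL28 cells and had a value of -0.11 in A375 cells (edgeR adjusted p = 1.35e-11, 5.28e-12 and 0.997). Of 8 melanocyte lineage markers, 7 in WM164 and 8 in SKMEL28 cells exceeded 1 CPM with GFP. In A375 cells 3 did, and MLANA and TYR, which mark differentiated melanocytes, had no counts. Of 8 keratinocyte markers, KRT10 was above 1 CPM in each line, joined by SFN in A375 cells, whereas KRT1 and KRT6A had no counts in any condition. Of 6 leukocyte markers, LYZ in WM164 cells was the 1 above 1 CPM, and CD3E had no counts in any condition. Fibroblast markers above 1 CPM with GFP numbered 3, 1 and 3 of 8 in WM164, SKMEL28 and A375 cells, and endothelial markers 0 of 5 in each.

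RefSeq promoter sequences were at hand for 4 of the 10 genes, ZEB1, ZEB2, CDH2 and CDH19, each from 250 bases before to 50 bases after the most upstream start listed. These starts differ from the gene boundaries given further below. The ZEB1 window ends before the gene boundary at 31318495, and the ZEB2 window lies inside the gene, whose boundary is at 144521057. Distances to motifs are counted from the starts of these promoter sequences' own listing. The ZEB1, ZEB2 and CDH19 promoters are shown because the level of each gene differed between lines and each window held a match to 1 of 5 short motifs, printed in capitals. The motifs searched on both strands were CAGGTG (an E-box read by ZEB and Snail factors), CATGTG and CACGTG (elements read by MITF), TGANTCA (an AP-1 site) and TGCTGA (a half-site read by small MAF proteins). TGCTGA and TGANTCA can share letters where both elements lie together. The promoters lie at chr10:31318167-31318466 on the plus strand for ZEB1, chr2:144520070-144520369 on the minus strand for ZEB2 and chr18:66604041-66604340 on the minus strand for CDH19 (GRCh38.p14).
ZEB1: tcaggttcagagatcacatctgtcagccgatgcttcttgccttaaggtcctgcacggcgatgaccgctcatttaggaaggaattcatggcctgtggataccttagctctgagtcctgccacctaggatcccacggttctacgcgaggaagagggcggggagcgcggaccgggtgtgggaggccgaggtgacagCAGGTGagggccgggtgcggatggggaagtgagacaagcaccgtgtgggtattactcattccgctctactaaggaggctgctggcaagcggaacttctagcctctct
ZEB2: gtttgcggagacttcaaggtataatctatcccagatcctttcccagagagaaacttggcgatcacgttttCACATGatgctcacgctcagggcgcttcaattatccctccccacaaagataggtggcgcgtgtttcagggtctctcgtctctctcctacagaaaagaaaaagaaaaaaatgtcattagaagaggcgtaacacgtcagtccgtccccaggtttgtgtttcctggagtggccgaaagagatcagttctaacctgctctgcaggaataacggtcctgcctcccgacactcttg
CDH19: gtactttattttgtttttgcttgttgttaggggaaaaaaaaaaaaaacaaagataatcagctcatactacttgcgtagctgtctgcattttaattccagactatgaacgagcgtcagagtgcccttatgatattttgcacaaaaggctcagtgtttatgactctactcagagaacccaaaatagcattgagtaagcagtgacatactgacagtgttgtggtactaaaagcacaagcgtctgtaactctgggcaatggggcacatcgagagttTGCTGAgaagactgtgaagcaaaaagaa
In the ZEB1 promoter the E-box CAGGTG began 57 bases before the start. In the ZEB2 promoter the element CATGTG was read on the other strand, as CACATG, 180 bases before the start. In the CDH19 promoter the half-site TGCTGA began at base 23 after the start. These matches are descriptions of letters, since CAGGTG is held by 20.6%, CATGTG by 11.1% and TGCTGA by 17.3% of 35116 promoters of the same length. CACGTG and TGANTCA, found in 7.26% and 7.71% of promoters, had no match in the windows of the 4 genes, and the CDH2 window held none of the 5 motifs.

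With GFP, the 3 lines expressed different sets of these genes. WM164 cells expressed all 5 factors together with CDH2 and CDH19, SKMEL28 cells expressed mainly ZEB2, SNAI2 and TWIST1 with CDH3, CDH2 and CDH19, and A375 cells expressed ZEB1, ZEB2, TWIST1 and some SNAI1 with CDH2. Levels of different genes are compared as TPM, which accounts for transcript length. Summed over the 5 factors, the GFP cells had 77.3 ± 7.81 TPM in WM164, 211 ± 9.85 TPM in SKMEL28 and 27.0 ± 6.09 TPM in A375 (SD, n = 3). SNAI2 made up 40.5% ± 0.48, 60.5% ± 2.51 and 0.14% ± 0.14 of the summed factor TPM of WM164, SKMEL28 and A375 cells. The cadherin sums, at 26.2 ± 4.80 (WM164), 26.1 ± 1.02 (SKMEL28) and 30.3 ± 5.40 TPM (A375), lay within the spread of the libraries. The TPM scale itself was shifted between lines. On log2(TPM + 1) the median of all genes was -0.42 for WM164 against SKMEL28 and -0.35 for WM164 against A375. Whether the cadherin sums differ once this shift is removed was not tested. The makeup of the cadherin sum differed between lines. CDH2 gave 75.6% ± 0.63 in WM164 and 99.4% ± 0.31 in A375 cells, whereas CDH3 gave 59.7% ± 1.35 in SKMEL28 cells.

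**Figure D1:**
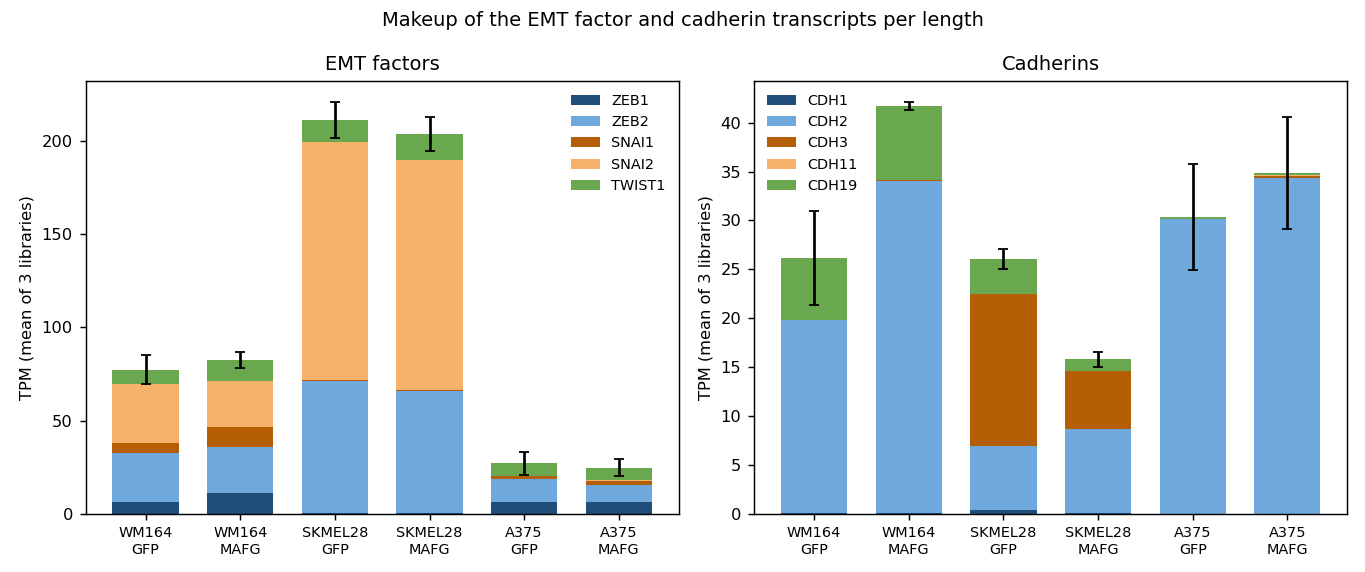
Stacked bars of the mean TPM (3 libraries per condition) of the 5 EMT factors and the 5 cadherins in each line with GFP or MAFG, where the error bar is the SD of the summed TPM. SKMEL28 cells have the highest factor sum, 211 TPM with GFP, and are the line with a large CDH3 segment, which is smaller with MAFG.

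ZEB1 (chromosome 10 from 31318495 to 31529814, plus strand, GRCh38) was low in SKMEL28 cells and high in the other lines. Its GFP level was 2.27 ± 0.15 CPM in SKMEL28, 56.2 ± 4.19 in WM164 and 42.8 ± 2.07 in A375 cells. WM164 cells thus exceeded SKMEL28 cells 24.7-fold (log2 fold change 4.63, SE 0.23, edgeR adjusted p = 6.20e-13), while WM164 and A375 cells did not differ past the threshold (adjusted p = 0.0536). SNAI1 (chromosome 20 from 49982980 to 49988886, plus strand) followed the same order, with 16.0 ± 1.29, 3.71 ± 0.13 and 0.678 ± 0.22 CPM in WM164, A375 and SKMEL28 cells. Each neighbouring pair in that order differed, the upper pair 4.31-fold and the lower pair 5.59-fold (edgeR adjusted p = 6.45e-10 and 4.42e-09).

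ZEB2 and SNAI2 had another order, highest in SKMEL28 and lowest in A375 cells. ZEB2 (chromosome 2 from 144364364 to 144521057, minus strand) was at 359 ± 16.0 CPM in SKMEL28, 209 ± 7.33 in WM164 and 67.1 ± 4.95 in A375 GFP cells. SNAI2 (chromosome 8 from 48917598 to 48921740, minus strand) was at 323 ± 12.1, 114 ± 0.72 and 0.106 ± 0.10 CPM, with counts of 8, 4 and 0 in the A375 libraries. All 4 neighbouring steps passed the test, with the SNAI2 step from WM164 to A375 at 1021-fold (SE 0.23 on the log2 scale, edgeR adjusted p = 6.69e-19). This fold rests on few A375 counts and was 1938 without the first and 699 without the third A375 GFP library. TWIST1 (chromosome 7 from 19020991 to 19117636, minus strand) had the smallest range of the 5 factors, with 15.6 ± 2.32 CPM in WM164, 12.3 ± 1.24 CPM in SKMEL28 and 6.66 ± 0.80 CPM in A375 cells. Its step from WM164 to SKMEL28 passed on counts (log2 fold change 0.35, adjusted p = 0.0278, edgeR). It did not pass without the first WM164 GFP library or without the first or the third SKMEL28 GFP library (edgeR adjusted p from 0.0840 to 0.191). On the log2(TPM + 1) scale the step turned to -0.57 (limma adjusted p = 0.00713). The median of all genes in this comparison was -0.42 on that scale and 0 on counts.

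CDH2 (chromosome 18 from 27932879 to 28177946, minus strand) was at 146 ± 6.09 CPM in A375, 136 ± 8.71 in WM164 and 31.3 ± 1.25 in SKMEL28 GFP cells, and the first of these steps did not pass (adjusted p = 0.187, edgeR). On the log2(TPM + 1) scale CDH2 was lower in WM164 than in A375 cells and passed (-0.59, limma adjusted p = 0.00164). The median of all genes in this comparison was -0.35 on that scale and 0.08 on counts. CDH3 was expressed in SKMEL28 cells, at 45.9 ± 3.62 CPM, and at most at 2 counts per library in the other GFP cells, so its level was at least 424-fold higher than in WM164 and at least 566-fold higher than in A375 cells. CDH1 lies next to CDH3 on chromosome 16, from 68737292 to 68835537, with 9823 bases and no annotated gene between them (CDH3 spans 68636189 to 68727468, both on the plus strand). CDH1 was scarce in every line, with counts of 33, 18 and 32 in SKMEL28, 4, 8 and 3 in WM164 and 0 in each A375 GFP library. The SKMEL28 level of CDH1, 1.03 ± 0.12 CPM, was at least 12.7-fold higher than in A375 cells. CDH19 (chromosome 18 from 66501083 to 66604138, minus strand) was at 39.6 ± 2.15, 16.6 ± 0.94 and 0.477 ± 0.04 CPM in WM164, SKMEL28 and A375 cells, with both steps past the test (edgeR adjusted p = 3.70e-09 and 5.43e-17). CDH11 (chromosome 16 from 64943753 to 65126112, minus strand) had no counts in WM164 and SKMEL28 GFP cells and 4, 5 and 0 counts in A375 GFP cells, and was too low to be tested. A level in bulk RNA can be low because fewer cells express a gene or because each cell holds less RNA, which cannot be told apart here.

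Of the 9 genes tested between lines, 8 passed (adjusted p of 0.05 or less) between WM164 and SKMEL28, 6 between WM164 and A375 and 9 between SKMEL28 and A375 GFP cells. Among all tested genes the share was 56.8%, 71.5% and 68.6%. The 9 include CDH1 and CDH3, which were too low to be tested within WM164 or within A375 cells. CDH1 passed between WM164 and A375 cells on 4, 8 and 3 counts against 0 in each A375 GFP library. The median log2 difference of the 9 was 0.35, 2.11 and 2.42 in these comparisons, beside 0, 0.08 and 0.06 over all genes.

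**Figure D2:**
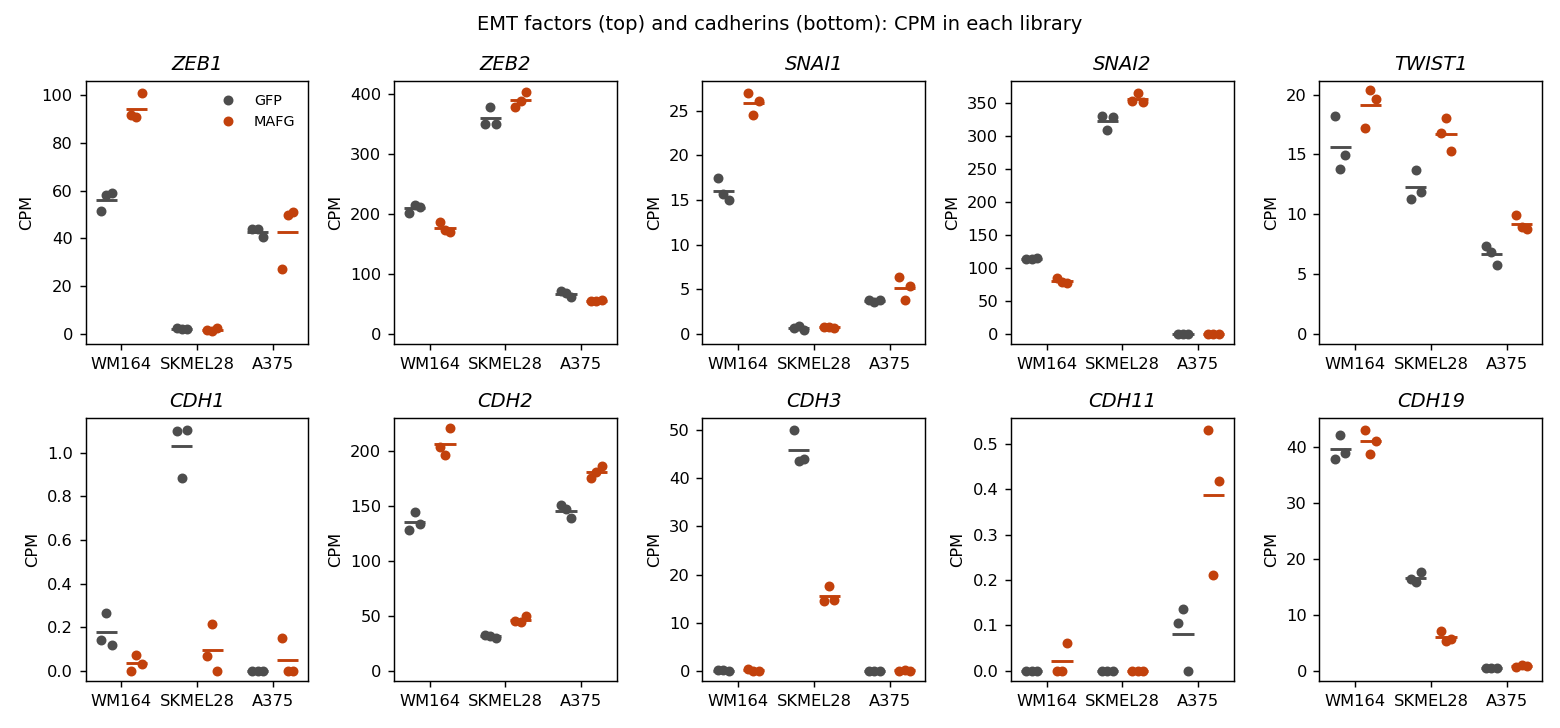
CPM of each gene in each library (points) with the mean of the 3 libraries (line), for GFP and MAFG cells of each line. The vertical scale differs between panels, and CDH1 and CDH11 stay below 1.2 and 0.6 CPM throughout.

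In WM164 cells, MAFG overexpression was accompanied by higher ZEB1, SNAI1 and CDH2 and lower ZEB2 and SNAI2. These 5 of the 7 tested genes passed the edgeR test, where 31.8% of all 15919 tested genes did (16.2% higher and 15.6% lower), and their GFP and MAFG libraries did not overlap, as for 43.4% of all genes. The 5 changes were below 2-fold, so that none of the 7 was differentially expressed, which needs a fold change above 2 beside the adjusted p, a status reached by 6.94% of all genes. The median log2 fold change was 0.29 over the 7 genes and -0.0015 over all genes.

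ZEB1 was at 51.3, 58.4 and 58.8 CPM in the 3 WM164 GFP libraries and at 91.4, 90.7 and 101 CPM in the MAFG libraries. Every MAFG library was above every GFP library, and ZEB1 rose 1.68-fold (log2 fold change 0.75, SE 0.07, edgeR adjusted p = 1.27e-07). SNAI1 was at 17.5, 15.6 and 15.0 CPM with GFP and at 27.0, 24.5 and 26.05 CPM with MAFG. The groups were again separate, with a 1.61-fold rise (log2 fold change 0.69, SE 0.09, edgeR adjusted p = 1.02e-05). ZEB1 overlaps ZEB1-AS1 on the opposite strand, which had 447 and 532 counts in total in the GFP and MAFG libraries, beside 4686 and 8331 for ZEB1. Whether counting used strand is not given in the sources used here, so reads of such antisense pairs may not have been separated.

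Both factors of the differentiated lineage moved down. SNAI2 was at 114, 114 and 115 CPM in the GFP libraries, which lay very close together, and at 85.2, 79.0 and 77.5 CPM with MAFG. SNAI2 fell by 0.51 on the log2 scale (SE 0.06, edgeR adjusted p = 2.04e-06). ZEB2 was at 201, 215 and 211 CPM with GFP and 186, 173 and 170 CPM with MAFG. The ranges did not overlap, and ZEB2 fell by 0.25 on the log2 scale (SE 0.06, edgeR adjusted p = 0.00203). On the log2(TPM + 1) scale, where the median of all genes shifted by 0.14 in this line, neither fall passed (log2 fold changes -0.31 and -0.08, limma adjusted p = 0.0922 and 0.718). TWIST1 was at 18.2, 13.8 and 14.9 CPM with GFP and at 17.2, 20.4 and 19.7 CPM with MAFG, with overlapping libraries (log2 fold change 0.29, edgeR adjusted p = 0.0579). It passed without the first GFP library (adjusted p = 0.0102) or the first MAFG library (adjusted p = 0.0414), and on the log2(TPM + 1) scale (0.45, limma adjusted p = 0.0273). MITF, the lineage factor of melanocytes, fell in the same cells by 0.65 on the log2 scale (edgeR adjusted p = 1.55e-08). Of the 7 tested melanocyte lineage markers, 6 passed with a lower level, against 15.6% of all genes. Their summed level was 4525 to 4865 CPM in the GFP and 2445 to 2592 CPM in the MAFG libraries, and its part in the falls of SNAI2 and ZEB2 was not tested.

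Among the cadherins of WM164 cells, CDH2 was at 128, 145 and 134 CPM with GFP and at 204, 197 and 221 CPM with MAFG. Its MAFG libraries were all higher, and CDH2 rose 1.53-fold (log2 fold change 0.61, SE 0.06, edgeR adjusted p = 4.15e-07). CDH19 was at 37.8, 42.0 and 38.9 CPM with GFP and 43.0, 38.7 and 41.1 CPM with MAFG. These ranges overlapped, and the 95% interval of the log2 fold change ran from -0.10 to 0.19. CDH1, CDH3 and CDH11 were too low to be tested, and CDH1 counts were 4, 8 and 3 with GFP and 0, 2 and 1 with MAFG. As a share of the summed cadherin TPM, CDH2 was at 75.6% ± 0.63 with GFP and 81.5% ± 2.38 with MAFG (SD, n = 3).

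In SKMEL28 cells, CDH1, CDH3 and CDH19 were lower and CDH2 was higher with MAFG, while TWIST1 was the 1 of 5 factors past the test. In all, 5 of the 9 tested genes passed, 2 higher and 3 lower, against 29.9% of all 15523 tested genes (14.6% higher and 15.3% lower), and 3 were differentially expressed, each lower, against 2.98% of all genes in that direction. The libraries of the conditions did not overlap for 7 of the 9, against 43% of all genes. CDH1 is in each of these counts. It reached the level needed for a test through its GFP libraries alone, so its fall adds no support to them. The median log2 fold change was 0.12 over the 9 genes and -0.0080 over all genes.

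CDH3 was at 50.1, 43.6 and 44.1 CPM in the SKMEL28 GFP libraries and at 14.4, 17.7 and 14.7 CPM in the MAFG libraries. The lowest GFP library was above the highest MAFG library by more than 2-fold, and CDH3 decreased 2.94-fold (log2 fold change -1.56, SE 0.10, edgeR adjusted p = 8.28e-09). CDH3-AS1, annotated on the opposite strand, had 94 counts in total with GFP and 38 with MAFG, beside 3668 and 1319 for CDH3. CDH19 was at 16.4, 15.8 and 17.6 CPM with GFP and at 7.14, 5.34 and 5.74 CPM with MAFG. It too was separate, with a 2.73-fold decrease (log2 fold change -1.45, SE 0.13, edgeR adjusted p = 9.29e-07). CDH1 had 33, 18 and 32 counts with GFP and 2, 6 and 0 with MAFG, so that every MAFG library was below every GFP library at a low depth. Its fitted log2 fold change was -3.39 (SE 0.72, edgeR adjusted p = 0.00205), between -4.71 and -2.85 when 1 library was left out.

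CDH2 was at 32.4, 31.4 and 30.0 CPM with GFP and at 45.2, 44.6 and 50.2 CPM with MAFG in SKMEL28 cells. The groups were separate, and CDH2 rose 1.49-fold (log2 fold change 0.58, SE 0.07, edgeR adjusted p = 2.59e-05). Among the 8 tested melanocyte lineage markers of SKMEL28 cells, 1 rose and 3 fell, against 14.6% and 15.3% of all genes. MITF fell with a log2 fold change of -0.20 (edgeR adjusted p = 0.00967) and PMEL, a melanosome protein, with -0.66 (edgeR adjusted p = 2.93e-06). The summed level of the 8 markers was 4639 to 4903 CPM with GFP and 3901 to 4142 CPM with MAFG, and its part in the cadherin changes was not tested. The CDH2 share of the summed cadherin TPM was 25.3% ± 2.27 with GFP and 54.4% ± 3.41 with MAFG, and the CDH3 share 59.7% ± 1.35 and 37.5% ± 3.28 (SD, n = 3). The summed cadherin TPM was 26.1 ± 1.02 with GFP and 15.8 ± 0.76 with MAFG.

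TWIST1 was at 11.3, 13.7 and 11.9 CPM with GFP and at 16.8, 18.04 and 15.3 CPM with MAFG in SKMEL28 cells. The MAFG libraries were higher without overlap, and TWIST1 rose 1.37-fold on counts (log2 fold change 0.45, SE 0.11, edgeR adjusted p = 0.00646). On the log2(TPM + 1) scale, where the median of all genes shifted by -0.14 in this line, TWIST1 did not pass (0.19, limma adjusted p = 0.231). ZEB2 was at 350, 377 and 349 CPM with GFP and 378, 388 and 404 CPM with MAFG. SNAI2 was at 330, 309 and 330 CPM with GFP and 353, 365 and 352 CPM with MAFG. For both, the MAFG libraries were above the GFP libraries without passing the test (log2 fold changes 0.12 and 0.15, edgeR adjusted p = 0.121 and 0.0581), and both values turned negative on the TPM scales. SNAI2 passed with DESeq2 (adjusted p = 0.0155), and ZEB2 passed without the second GFP library (edgeR adjusted p = 0.0437). ZEB1 was at 2.40, 2.31 and 2.11 CPM with GFP and 1.57, 1.18 and 2.74 CPM with MAFG, and SNAI1 was below 1 CPM in every library. The 95% intervals of their log2 fold changes, -0.94 to 0.32 for ZEB1 and -0.77 to 1.07 for SNAI1, were wide at this depth.

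In A375 cells, 0 of the 7 tested genes passed the edgeR test, and 0.843% of all 15779 tested genes did. Without the first MAFG library, which differed more from its replicates (mean chi-square per gene 68.7 and 96.7) than they did from each other (15.8), 2.4% of all genes and 1 of the members passed. Before adjustment 4 of the 7 had a p under 0.05 (ZEB2, SNAI2, TWIST1 and CDH2), against 6.26% of all genes, with 0 passing by DESeq2. The libraries did not overlap for 5 of the 7, against 12.3% of all genes, and the median log2 fold change was 0.46, beside -0.00037 over all genes. SNAI2 is in the 4, the 5 and the median. It reached the level needed for this test through its MAFG libraries alone, so its rise adds no support to them. When the spread was estimated from all 18 libraries in 1 model, ZEB2, SNAI2, CDH2 and CDH19 passed, as did 2.7% of all genes.

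CDH2 was at 151, 148 and 139 CPM with GFP and at 176, 181 and 187 CPM with MAFG in A375 cells. All 3 MAFG libraries were higher, with a log2 fold change of 0.31 (SE 0.09, edgeR adjusted p = 0.358), which passed without the first MAFG library (adjusted p = 0.0310). ZEB2 was at 71.7, 67.8 and 61.9 CPM with GFP and at 55.7, 55.2 and 56.5 CPM with MAFG. All 3 MAFG libraries were lower (log2 fold change -0.27, SE 0.10, edgeR adjusted p = 0.613). ZEB1 was at 44.1, 43.9 and 40.4 CPM with GFP and at 27.1, 49.6 and 51.1 CPM with MAFG. The first MAFG library stood below and the other 2 above all GFP libraries, and the log2 fold change was -0.0021 with all libraries and 0.25 without the first MAFG library (edgeR adjusted p = 0.999 and 0.179). TWIST1 was at 7.32, 6.87 and 5.77 CPM with GFP and at 9.93, 8.98 and 8.75 CPM with MAFG, a separation without overlap (log2 fold change 0.46, edgeR adjusted p = 0.483).

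SNAI2, CDH1, CDH3, CDH11 and CDH19 were under 1 CPM in A375 GFP cells, so that a fall had little room to show. SNAI2 counts were 8, 4 and 0 with GFP and 31, 14 and 15 with MAFG, still under 1 CPM (log2 fold change 2.18, SE 0.97, edgeR adjusted p = 0.793). CDH19 counts were 20, 17 and 16 with GFP and 30, 37 and 35 with MAFG, separate but not past the test (log2 fold change 0.83, edgeR adjusted p = 0.976). CDH11 counts were 4, 5 and 0 with GFP and 21, 8 and 18 with MAFG, too few to be tested after the filter. CDH1 counts were 0 in each GFP library and 6, 0 and 0 with MAFG, and CDH3 counts were 0 in each GFP library and 0, 7 and 0 with MAFG. In the same libraries SOX10, a neural crest factor among the melanocyte markers, was the marker of its list that passed, and the summed level of the list was 47.8 to 55.6 CPM with GFP and 132 to 184 CPM with MAFG. The part of this shift in the counts above was not tested.

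**Figure D3:**
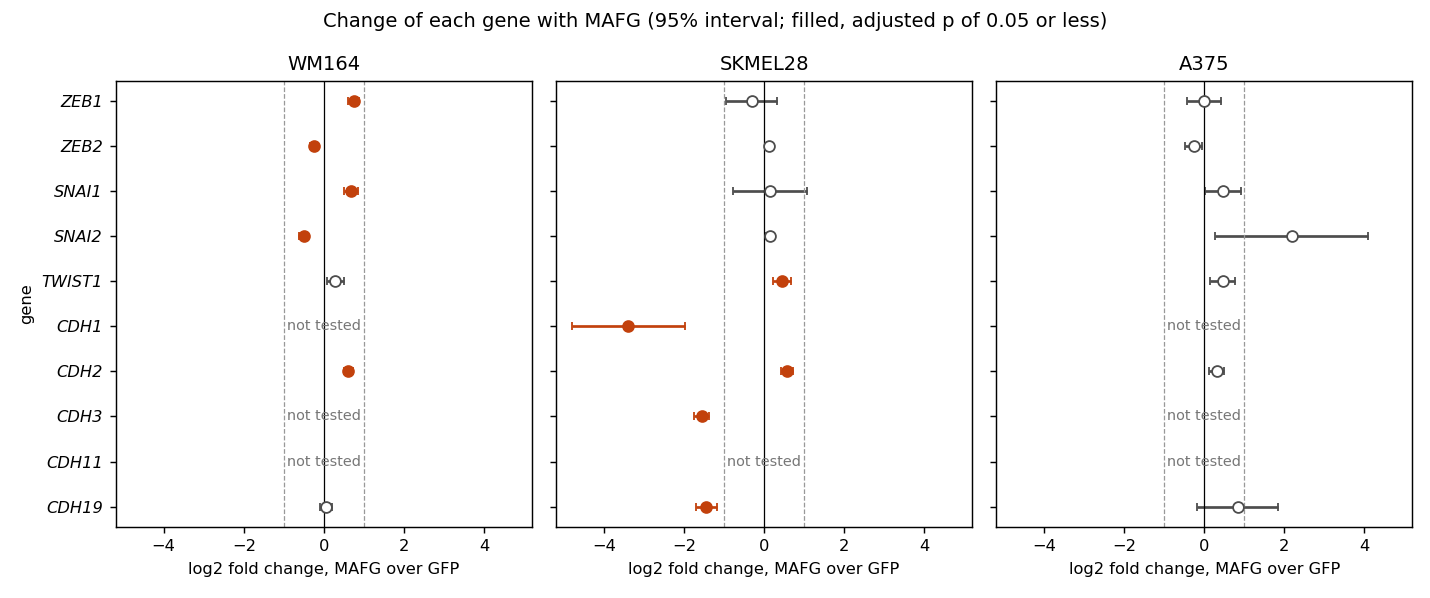
Log2 fold change of each gene, MAFG over GFP, with its 95% interval in each line (edgeR). Filled points have an adjusted p of 0.05 or less, dashed lines mark a 2-fold change, and CDH1, CDH3 and CDH19 of SKMEL28 cells are the points with filled symbols beyond it.

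Whether the response to MAFG differed between lines was tested by contrasts of 1 edgeR model holding the 18 libraries. Between WM164 and SKMEL28 cells, 4 of 9 tested genes differed (13.7% of all genes). CDH19, which fell in SKMEL28 cells, had the clearest difference, 1.498 on the log2 scale (SE 0.16, adjusted p = 1.04e-06). SNAI2 and ZEB2 responded lower in WM164 than in SKMEL28 cells, by differences of -0.65 and -0.37 (SE 0.16 and 0.09, edgeR adjusted p = 0.00963 and 0.0117). Neither passed on the log2(TPM + 1) scale, where the differences were -0.26 for SNAI2 and 0.02 for ZEB2 (limma adjusted p = 0.190 and 0.966). The median of all genes for this contrast was 0.26 on that scale and 0.02 on counts. For ZEB1 the difference of 1.07 (SE 0.34, adjusted p = 0.0413) passed narrowly. When 1 library was left out it passed in 1 of 12 fits, that without the third SKMEL28 MAFG library, and the adjusted p ranged from 0.00754 to 0.135. CDH2 rose in both lines, and the 95% interval of the difference ran from -0.17 to 0.24. For CDH1 and CDH3, which WM164 cells nearly lacked, the differences did not pass on counts (edgeR adjusted p = 0.807 and 0.133). On the log2(TPM + 1) scale those of CDH3 (1.32) and SNAI1 (0.78) did (limma adjusted p = 0.000197 and 0.00281), and on log2(TPM + 0.1) they did not (limma adjusted p = 0.148 and 0.0518).

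Against A375 cells, 2 of the 9 genes differed for WM164 (9.21% of all genes) and 4 for SKMEL28 cells (9.51% of all genes). SNAI2 responded lower in WM164 and in SKMEL28 than in A375 cells, by -2.67 and -2.02 on the log2 scale (SE 0.46 and 0.47, edgeR adjusted p = 0.000455 and 0.00744), where the A375 side rests on at most 31 counts per library. The second of these values was -0.22 on the log2(TPM + 1) scale (limma adjusted p = 0.439). On log2(TPM + 0.1) it was -1.01 and passed (limma adjusted p = 0.04585). CDH19 also responded lower in both, by -0.78 and -2.27 (SE 0.23 and 0.23, edgeR adjusted p = 0.0358 and 9.44e-07). The CDH19 value for WM164 passed in 3 of 12 fits that left out 1 library (edgeR adjusted p from 0.0269 to 0.108). It was 0.19 on the log2(TPM + 1) scale (limma adjusted p = 0.647), where the median of all genes was 0.21. SNAI1 for WM164 passed on that scale (0.54, limma adjusted p = 0.0435). SNAI1 did not pass on log2(TPM + 0.1) (limma adjusted p = 0.278) or on counts (edgeR adjusted p = 0.706). ZEB2 responded higher in SKMEL28 than in A375 cells, by 0.39 (SE 0.10, edgeR adjusted p = 0.0124), and by 0.25 on the log2(TPM + 1) scale, where it did not pass (limma adjusted p = 0.603). The CDH3 difference between these lines did pass on that scale (-1.42, limma adjusted p = 0.000325), but not on log2(TPM + 0.1) (-2.16, limma adjusted p = 0.129). The CDH1 difference of -7.17 between SKMEL28 and A375 cells (edgeR adjusted p = 0.0435) rested on the 6 counts of the first A375 MAFG library, without which it was -3.40 (adjusted p = 1), and it passed in 3 of 12 fits that left out 1 library. Since CDH1 had no counts in A375 GFP cells, this fitted value depends on the prior count and is no bound. Differences that did not pass with all libraries but did without 1 of them were that of ZEB1 between WM164 and A375 cells (0.76, adjusted p = 0.0633), which passed without the first, the second or the third A375 MAFG library (adjusted p = 0.0335, 0.0368 and 0.0239, edgeR), and that of CDH3 between SKMEL28 and A375 cells (adjusted p = 0.0695), which passed without the first or the third A375 MAFG library (adjusted p = 0.0239 and 0.0265, edgeR).

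The balance within the factor and cadherin pairs was followed as the log2 ratio of TPM values, with 0.1 TPM added to each. With 3 libraries against 3, the exact permutation test cannot give a p below 0.1. In WM164 cells the ZEB1 to ZEB2 ratio was -2.15, -2.01 and -2.00 with GFP and -1.22, -1.11 and -1.03 with MAFG. The libraries were separate, and the mean difference was 0.94 (two-sided exact permutation p = 0.1). In SKMEL28 cells the same ratio was -7.04 ± 0.43 with GFP and -7.49 ± 0.51 with MAFG, and in A375 cells -0.87 ± 0.12 and -0.59 ± 0.44 (SD, n = 3). These ranges overlapped (two-sided exact permutation p = 0.4 in each line).

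The CDH1 to CDH2 ratio in SKMEL28 cells was -4.57, -3.36 and -4.06 with GFP and -6.17, -5.13 and -6.48 with MAFG. All MAFG libraries were lower, with a mean difference of -1.93 (two-sided exact permutation p = 0.1). Its size is set by the value added, since it was -0.68 with 1 TPM added and -4.44 as a ratio of counts. In WM164 cells the ratio was -7.15 ± 0.11 with GFP and -8.11 ± 0.40 with MAFG, at CDH1 levels of 0.04 and 0.03 TPM, below the 0.1 TPM added, so that this ratio mainly restates CDH2. The WM164 libraries were separate, with a mean difference of -0.96 (two-sided exact permutation p = 0.1). As a ratio of counts the difference was -2.74. In A375 cells the ratio was -8.22 ± 0.26 and -8.33 ± 0.39, with overlapping libraries (exact permutation p = 0.6).

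**Figure D4:**
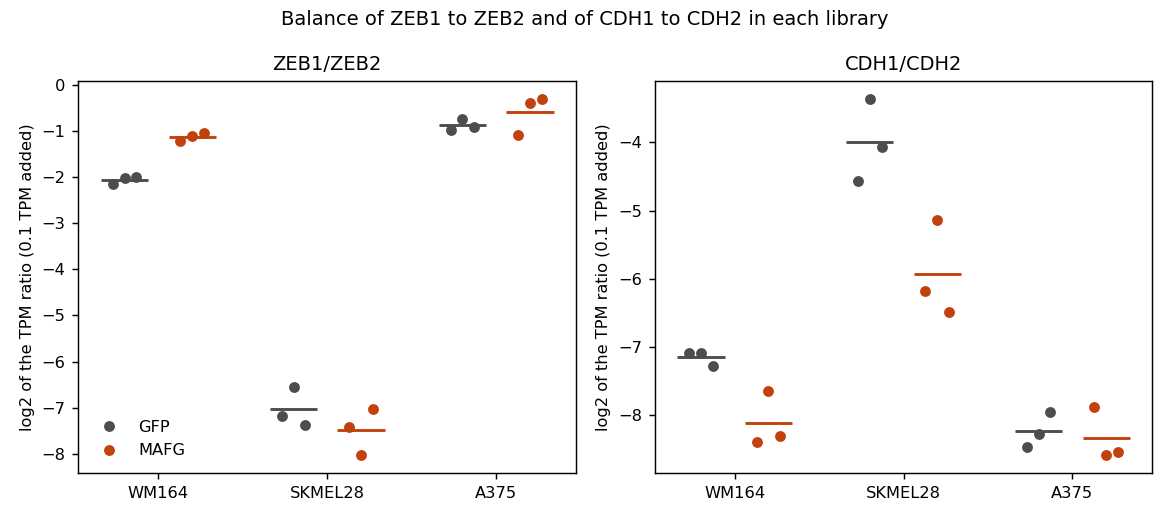
Log2 ratio of ZEB1 to ZEB2 and of CDH1 to CDH2 (TPM with 0.1 added) in each library, with the mean of the 3 libraries as a line. The WM164 libraries separate by condition in both panels and the SKMEL28 libraries in the CDH1 to CDH2 panel. The mean CDH1 level of every condition but SKMEL28 with GFP lies below the 0.1 TPM added.

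Other genes around the factors and cadherins were counted by list. For comparison with every list below, 16.2% of all tested genes rose and 15.6% fell in WM164 cells. In SKMEL28 cells 14.6% rose and 15.3% fell, and in A375 cells 0.843% passed in either direction. Of 10 other EMT transcription factors, 3 of 5 tested rose in WM164, 1 of 5 in SKMEL28 and 1 of 8 in A375 cells, and none fell. PRRX1, a homeobox factor of mesenchyme, rose in WM164 cells from 15.8 to 36.9 CPM (log2 fold change 1.22, edgeR adjusted p = 2.64e-09). In A375 cells PRRX1 counts were 13, 17 and 24 with GFP and 310, 325 and 282 with MAFG (log2 fold change 3.96, edgeR adjusted p = 7.94e-05). TCF4, a helix-loop-helix E protein, rose in WM164 cells (1.26, adjusted p = 1.57e-08, edgeR), and FOXC1, a forkhead factor, in SKMEL28 cells (0.52, adjusted p = 0.0100). FOXC1 rose in WM164 cells too, by 0.25 (edgeR adjusted p = 0.0106). Of 10 corepressors and chromatin enzymes that EMT factors recruit, 1 rose and 1 fell in WM164, 2 rose in SKMEL28 and 0 passed in A375 cells. The largest of these changes was that of EZH2, a histone methyltransferase, in SKMEL28 cells (log2 fold change 0.45, edgeR adjusted p = 0.000200). The median of the list was 0.02, 0.07 and -0.0061 in WM164, SKMEL28 and A375 cells.

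Of 17 other cadherins, 1 of 2 tested rose in WM164 cells, where CDH24 had a log2 fold change of 1.12 (edgeR adjusted p = 3.50e-06). In SKMEL28 cells 1 of 4 rose and 3 fell, at low counts. CDH13, the membrane-anchored T-cadherin, had 2, 7 and 12 counts with GFP and 40, 56 and 54 with MAFG. CDH18 had 34, 32 and 81 counts with GFP and 3, 5 and 0 with MAFG. CDH7 had 40, 30 and 87 counts with GFP and 5, 9 and 19 with MAFG. In each case the libraries were separate (edgeR adjusted p = 0.00110, 0.000174 and 0.00344). CDH13, CDH18 and CDH7 each reached the level needed for a test through the condition where it was high. Their directions were thus set by the filter and add no support to the count. CDH24, which rose in WM164 cells, fell in SKMEL28 cells (log2 fold change -0.72, edgeR adjusted p = 0.0200). In A375 cells 0 of 8 passed.

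Catenins link cadherins to the actin cytoskeleton. CTNNB1, encoding beta-catenin, which also serves WNT signalling, fell by 0.46 in WM164 and by 0.45 in SKMEL28 cells on the log2 scale (edgeR adjusted p = 2.39e-06 and 8.32e-05). In WM164 cells JUP, encoding plakoglobin, fell by 2.06 (adjusted p = 6.12e-06, edgeR) and CTNNA1, encoding alpha-catenin, rose by 0.54 (adjusted p = 5.01e-05). CTNND2, a delta-catenin of neural cells, had 0, 1 and 0 counts with GFP and 149, 131 and 202 with MAFG in WM164 cells, at least 50.1-fold higher. Of 5 tested catenins in each line, 2 rose and 2 fell in WM164, 2 fell in SKMEL28 and 0 passed in A375 cells. CTNND2, among those that rose, reached the level needed for a test through its MAFG libraries alone.

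Of 20 epithelial genes, 1 rose and 2 fell among 9 tested in WM164, 1 rose and 1 fell among 8 in SKMEL28, and 0 of 9 passed in A375 cells. DSP, encoding desmoplakin of desmosomes, fell in WM164 and in SKMEL28 cells, with log2 fold changes of -0.51 and -3.63 (edgeR adjusted p = 0.000810 and 5.73e-09). ESRP1, a splicing regulator of epithelia, fell by 0.81 in WM164 cells and rose by 0.83 in SKMEL28 cells (edgeR adjusted p = 0.000158 and 3.40e-05). OCLN, encoding the tight junction protein occludin, rose in WM164 cells from 0.806 to 4.53 CPM (log2 fold change 2.46, edgeR adjusted p = 4.55e-06). Of 18 mesenchymal genes, 10 of 14 tested rose in WM164, 7 of 10 in SKMEL28 and 3 of 15 in A375 cells, and none fell. Of all tested genes, 16.2% rose in WM164 and 14.6% in SKMEL28 cells, and 0.843% passed in either direction in A375 cells. Of the fibroblast markers, 1 of 4 tested rose and 1 fell in WM164 cells (PDGFRA by a log2 fold change of 1.97 and LUM to 0.501 times its GFP level, edgeR adjusted p = 1.53e-09 and 3.42e-07), LUM rose in SKMEL28 cells (0.77, edgeR adjusted p = 5.15e-05) and 0 of 4 passed in A375 cells. The summed level of the 8 fibroblast markers was 23.8 to 24.3 and 25.9 to 27.4 CPM with GFP and MAFG in WM164, 11.4 to 13.1 and 18.5 to 21.4 CPM in SKMEL28 and 9.84 to 13.3 and 10.9 to 12.9 CPM in A375 cells. Of the endothelial markers KDR rose in WM164 cells, where it stayed under 1 CPM (log2 fold change 3.15, edgeR adjusted p = 0.00820). The part of these markers in the mesenchymal counts was not tested. The median log2 fold change of the mesenchymal genes was 0.69, 0.56 and 0.19, beside medians over all genes within 0.01 of 0. TNC, encoding the matrix protein tenascin C, rose in WM164, SKMEL28 and A375 cells by 0.81, 0.78 and 1.88 (edgeR adjusted p = 1.55e-09, 5.69e-08 and 2.92e-05). MMP2, a matrix metalloproteinase, rose by 0.82 in WM164, by 2.33 in SKMEL28 and by 1.99 in A375 cells (edgeR adjusted p = 1.59e-07, 2.76e-09 and 6.65e-05).

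Across the 18 libraries the members followed the lines. The Pearson correlation of log CPM, given as a description because libraries of 1 line share their baseline, was 0.96 for ZEB1 with CDH2, 0.92 for ZEB1 with SNAI1 and 0.96 for ZEB2 with SNAI2. It was -0.94 for ZEB1 with CDH3, -0.95 for CDH2 with CDH3 and -0.68 for ZEB1 with ZEB2. The genes most correlated with each member over these 18 libraries were RBMS3 and DLG4 for ZEB1 (0.99 each) and LINC00520 and ATP6V0D2 for ZEB2 (0.995 each). They were CLPB and PRICKLE1 for SNAI1 (0.99 each), HTRA1 and ADGRG1 for SNAI2 (0.99 each) and UNC80 and LINC00511 for TWIST1 (0.96 each). Among the cadherins they were USF2 and SH3BP1 for CDH1 (0.92 and 0.90), SEMA3B and KCNMA1 for CDH2 (0.99 each), PRORSD1P and RGS1 for CDH3 (0.99 and 0.98) and CCNL2 and GAS8 for CDH19 (0.99 each), with CDH11 too low for the measure.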

How the data were processed

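The 18 RNA-seq libraries were grouped by the cell line and the overexpressed gene in the labels, 3 to each of 6 conditions. By the methods, cutadapt trimming and STAR alignment to GRCh38 were followed by featureCounts on reads with a unique position. The authors deposited the resulting counts, whole numbers for 58870 genes that were not normalized. They also deposited TPM, which the authors had scaled to the same sum in each library. The submitters' processing notes name cutadapt 1.8.1, STAR 2.7.7a, RSEM 1.3.0 and DESeq2 without giving each a role. The methods name a strand-specific kit and the labels a kit that does not mark strand. The annotation release and the strand setting of counting are not given in the sources used here. Of the 58870 gene identifiers, 58517 had a gene in GENCODE release 44, which gave the positions. Genes with the smallest counts were removed from tests by edgeR's filterByExpr, and 0 sample columns were left unused.

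MAFG was compared with GFP in each line on the counts of its 6 libraries with edgeR 4.0.16 in R 4.3.3 (TMM normalization, quasi-likelihood F test, Benjamini-Hochberg adjustment over all tested genes). Differences of the response and levels in GFP cells were tested in 1 edgeR model of the 18 libraries. A gene passed with an adjusted p of at most 0.05, and was differentially expressed if its fold change also exceeded 2, the thresholds of the methods, which used DESeq2. The standard error (SE) was taken as the size of the log2 fold change over the root of its F value. A condition with at most 3 counts in every library was at the floor, and its fold is a bound against 3 counts per library. Log2 ratios of TPM were compared with a two-sided exact permutation test. Depth was 20122172 to 39025042 counts per library, and replicates correlated at 0.970 to 0.985 (log CPM). The mean chi-square per gene between replicates was 5.90 to 96.7, where sampling noise alone gives about 1, so no library was taken as a repeat of another.

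The members and lists were chosen with earlier results of these data known. Named genes are the 10 members, MAFG, MITF and AXL as checks of the labels, for each list and line up to 2 passed genes per direction with the smallest adjusted p, and the 2 genes most correlated with each member. SOX10 falls under the list rule. Not every gene under that rule is named. Alternatives were DESeq2 1.42.0, its size factors in edgeR, other count filters, a block for the replicate number, 1 model of all 18 libraries, limma 3.58.1 on log2(TPM + 1) and log2(TPM + 0.1) of genes with at least 1 TPM in 3 libraries, a fold change limit, and fits without each single library. For the ratios, pseudocounts and counts in place of TPM were changed. The fits were tested on simulated data. Figures were drawn with matplotlib 3.10.9.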

Additional observations from a re-analysis of the deposited data

Results flagged for a closer look

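In 10 cases the response of a gene to MAFG differed between 2 lines by the interaction contrast of the edgeR model of all 18 libraries, with differences given on the log2 scale. For WM164 minus SKMEL28 cells they were ZEB1 (1.07, adjusted p = 0.0413), ZEB2 (-0.37, adjusted p = 0.0117), SNAI2 (-0.65, adjusted p = 0.00963) and CDH19 (1.498, adjusted p = 1.04e-06). For WM164 minus A375 cells they were SNAI2 (-2.67, adjusted p = 0.000455) and CDH19 (-0.78, adjusted p = 0.0358). For SKMEL28 minus A375 cells they were ZEB2 (0.39, adjusted p = 0.0124), SNAI2 (-2.02, adjusted p = 0.00744), CDH1 (-7.17, adjusted p = 0.0435) and CDH19 (-2.27, adjusted p = 9.44e-07). SNAI2 and CDH19 had a difference on counts in each of the 3 pairs of lines. On log2(TPM + 1) SNAI2 did not pass for WM164 minus SKMEL28 (limma adjusted p = 0.190) or SKMEL28 minus A375 (limma adjusted p = 0.439). For SKMEL28 minus A375 it passed on log2(TPM + 0.1) (-1.01, limma adjusted p = 0.04585). The median of all genes on log2(TPM + 1) was 0.26, 0.21 and -0.05 for WM164 minus SKMEL28, WM164 minus A375 and SKMEL28 minus A375. CDH19 was 0.19 on log2(TPM + 1) for WM164 minus A375 (limma adjusted p = 0.647). On counts that CDH19 difference passed in 3 of 12 fits that left out a library. ZEB2 passed on neither TPM scale in either pair. The ZEB1 value passed in 1 of 12 fits that left out a library, and the CDH1 value rested on 6 counts in 1 library. Every pair shares a line with the other pairs, so these differences are not independent of each other.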

How the results depend on the processing

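Over the 10 changes with MAFG that passed in a line, 137 alternative fits gave the same call in 131 and a weaker one in 6, and turned none. The 6 were ZEB2 and SNAI2 in WM164 and TWIST1 in SKMEL28 cells on both TPM scales, where the median of all genes shifted by 0.14 and 0.16 in WM164, -0.14 and -0.17 in SKMEL28 and -0.10 and -0.12 in A375 cells. With a fold change above 2 required, 0 instead of 5 genes passed in WM164, 3 instead of 5 in SKMEL28, 2 instead of 4 for WM164 minus SKMEL28 and 1 instead of 2 for WM164 minus A375. On both TPM scales 3 instead of 5 passed in SKMEL28, 2 instead of 4 for SKMEL28 minus A375 and, on log2(TPM + 0.1), 1 instead of 4 for WM164 minus SKMEL28 and 1 instead of 2 for WM164 minus A375. Fewer of all genes passed there as well. In SKMEL28 they were 2575 and 2542 instead of 4640, and for SKMEL28 minus A375 657 and 603 instead of 1784. On log2(TPM + 0.1) they were 2044 instead of 2573 for WM164 minus SKMEL28 and 1049 instead of 1728 for WM164 minus A375. With at least 10 counts in every library, 2 instead of 4 passed for SKMEL28 minus A375, and 1516 instead of 1784 of all genes. With all 18 libraries in 1 model, 4 instead of 0 passed in A375, and 506 instead of 133 of all genes. Leaving out 1 library gave 5 to 6 genes in WM164, 5 to 6 in SKMEL28, 0 to 1 in A375, 3 to 4, 1 to 3 and 3 to 5 for the differences WM164 minus SKMEL28, WM164 minus A375 and SKMEL28 minus A375, and 7 to 8, 6 to 7 and 9 to 10 for the GFP levels in that order. The single A375 gene was CDH2, without the first MAFG library, where 393 of all genes passed. The causes were not tested.

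Of the changes that did not pass in a line, ZEB2 and SNAI2 in SKMEL28 turned to -0.099 and -0.048 on log2(TPM + 1) and to -0.10 and -0.049 on log2(TPM + 0.1). SNAI1 in SKMEL28 ran from -0.079 to 0.37 with a library left out. ZEB1 in A375 ran from -0.17 to 0.25 and was 0.0033 with at least 10 counts. Among response differences, the values on log2(TPM + 1) and log2(TPM + 0.1) turned to 0.022 and 0.021 for ZEB2 and 0.26 and 0.29 for TWIST1 (WM164 minus SKMEL28), 0.41 and 0.44 for TWIST1 (WM164 minus A375) and 0.15 for TWIST1 on both (SKMEL28 minus A375), and CDH19 turned to 0.19 on log2(TPM + 1) (WM164 minus A375). The median of all genes on the 2 scales was 0.26 and 0.33 (WM164 minus SKMEL28), 0.21 and 0.26 (WM164 minus A375) and -0.05 and -0.07 (SKMEL28 minus A375). TWIST1 was 6.76e-05 with DESeq2 (SKMEL28 minus A375) and ran from -0.089 to 0.072 with a library left out. The same ranges were -0.012 to 0.092 for CDH2 (WM164 minus SKMEL28), -0.028 to 0.072 for ZEB2 and -4.44 to 1.18 for CDH3 (both WM164 minus A375). In GFP cells TWIST1 turned to -0.57 and -0.62 (WM164 against SKMEL28) and ZEB1 to -0.041 and -0.047 (WM164 against A375) on the TPM scales. The median of all genes there was -0.42 and -0.54 in the first and -0.35 and -0.46 in the second comparison. The CDH1 to CDH2 ratio difference in A375 was 0.81 with counts and -0.33 to 0.036 with a library left out.

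Libraries with the same number did not deviate together, with correlations of deviations from -0.04 to 0.03 within a line, so the numbers do not pair them. With the replicate number as a block 5, 5 and 0 genes passed in WM164, SKMEL28 and A375. Depth limits CDH1, CDH3 and CDH11 outside SKMEL28 and SNAI2 in A375, where a few counts decide a value.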
